A study of Mus musculus with 16 samples.

Results

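The 8 genes described here encode ion pumps and channels of the cell surface: the Na,K-ATPase beta subunits Atp1b1, Atp1b2 and Atp1b3, the gastric H,K-ATPase subunits Atp4a and Atp4b, the non-gastric H,K-ATPase alpha subunit Atp12a, the potassium channel Kcnk3 and the proton channel Otop1. They were chosen by symbol among the 46078 gene identifiers of the count table, with their levels in these libraries already known, so their values are given as a description and without p-values. All 8 had an identifier in the table. RNA from female C57BL/6 mice of wild-type genotype, 16 weeks old, was sequenced after poly(A) selection in 16 libraries. The groups of 4 libraries each were BAT_5C, brown adipose tissue of mice that spent their last 3 weeks at 5 °C, after 2 weeks at 18 °C that began at an age of 10 to 12 weeks; BAT_30C, brown adipose tissue of mice that stayed at 30 °C; and WAT_5C and WAT_30C, inguinal white adipose tissue under the same housing. Every mouse was born and weaned at 30 °C and lost its food 2 to 3 h before collection. The word inguinal also stands in the tissue label of the BAT libraries. Whether libraries came from separate mice is not stated, and p-values then measure only the spread between libraries, which may be technical.

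P-type pumps of this family move ions at the cost of ATP. The Na,K-ATPase exports sodium and imports potassium, whereas the H,K-ATPases export protons and import potassium. Each pump joins a catalytic alpha subunit to a glycosylated beta subunit, which the alpha subunit needs to fold and to reach the membrane. Kcnk3 belongs to the background potassium channels, which leak potassium at rest and set the membrane potential, and it closes when the outside turns acid. Otop1 lets protons into cells and is known from sour taste cells and from the inner ear, where otoconia fail to form in its absence. Kcnk3 and Otop1 are also used as transcripts that tell brown fat from white fat in the mouse.

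Depth ran from 54264023 to 71289020 counts per library. Levels are counts per 1000000 (CPM) of the TMM-adjusted library size, given in the order of replicates 1 to 4 where listed per library. Ucp1, the uncoupling protein of brown adipocytes, averaged 13045 CPM in BAT_5C and 1326 CPM in BAT_30C, and its range was 12387 to 13786 CPM in BAT_5C against 633 to 2019 CPM in BAT_30C. A source label names the other temperature in 4 of the 8 BAT libraries, and the groups follow the titles and the housing label. The library labelled WAT_5C replicate 1 differed from all others in sex-linked RNA: Xist, transcribed from the inactive X chromosome, had 3 counts there and 11136 to 88934 elsewhere, while 4 Y-linked genes had 17183 counts there and at most 45 elsewhere. That library goes against its label as female, so the temperature and tissue comparisons that involve it are also given without it for the 6 of the 8 genes with enough counts to be tested.

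The closeness of the beta subunits in sequence bears on whether their reads can be kept apart, so the coding sequences were compared in GENCODE M21 (build GRCm38). Across the coding sequences of Atp1b1, Atp1b2, Atp1b3 and Atp4b, the longest run of bases that any pair shares was 19, in Atp1b1 and Atp1b2. The gastric Atp4b shares at most 15 bases in a row with a Na,K-ATPase beta subunit, and that run lies in single coding exons of Atp1b1 (chr1:164441483-164441529, minus strand) and Atp4b (chr8:13389671-13389717, minus strand). Both stretches are shown because they hold the longest run that the coding sequences of the 2 genes share, with that run in capitals.
Atp1b1: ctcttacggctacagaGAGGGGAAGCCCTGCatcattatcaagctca
Atp4b: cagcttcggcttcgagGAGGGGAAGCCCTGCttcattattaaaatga
Windows of 50 bases of the Atp4b, Otop1, Atp1b2 and Atp4a transcripts matched no transcript of another gene. The share of windows that did match one was 15.8% for Atp1b1 (with Nme7), 9.71% for Atp1b3 (with Gm1848), 9.5% for Atp12a (with Gm10873) and 4.89% for Kcnk3 (with Gm9899 among others). Nme7, Gm10873 and Gm9899 lie on the opposite strand of their partners, and Gm45410, whose gene spans 1093 bases of the Atp4b gene on its opposite strand, matched no window of Atp4b. Counts of Gm45410 were not analysed here. Gm9899 had 3506 to 4369 counts in BAT_5C and 3404 to 5703 in BAT_30C, and 263 to 628 in WAT_5C and 69 to 203 in WAT_30C. Which strand setting was counted with is not stated in the sources used here, and without it reads from the windows that Atp1b1 shares with Nme7, Atp12a with Gm10873 and Kcnk3 with Gm9899 cannot be told apart.

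Atp4b had the largest fold change of the 6 genes with enough counts to be tested in brown fat. Its protein is the beta subunit of the pump that acidifies the stomach. It had 12.2, 12.4, 13.5 and 16.4 CPM in the BAT_5C libraries, against 0.0553, 0, 0.162 and 0.0435 CPM in the BAT_30C libraries. The lowest cold library lay far above the highest warm one, and the warm libraries held 13 counts between them against 2210 in the cold libraries. The ratio of the scaled sums was 214 (95% Clopper-Pearson interval 125 to 402, counting error only), and the fitted log2 fold change was 7.68 ± 0.45 (SE). With any 1 library left out it ran from 7.27 to 8.62, and it was 8.95 in the 4 BAT libraries whose labels all match. Fewer cells of a type and less RNA per cell cannot be told apart in these tissue libraries, here and in all that follows.

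Otop1 and Kcnk3 also differed between the temperatures in brown fat, at far higher levels. Otop1 had 534, 538, 525 and 568 CPM in BAT_5C, against 64.8, 148, 102 and 113 CPM in BAT_30C. The groups were well apart, with a spread of 18.6 CPM around the BAT_5C mean of 541 and of 34.2 CPM around the BAT_30C mean of 107 (SD, n = 4 each). The log2 fold change was 2.34 ± 0.21 (SE), or 5.06-fold. Kcnk3 had 680.4, 773, 631 and 744 CPM in BAT_5C, against 277, 511, 412 and 446 CPM in BAT_30C. These groups too did not overlap, although the gap between them was smaller than the range within BAT_30C, where replicate 1 was lowest for Kcnk3 and for Otop1. The Kcnk3 difference was 0.78 ± 0.16 (SE) on the log2 scale, or 1.72-fold, and 0.41 when libraries were scaled by their totals alone. By totals the Kcnk3 groups overlapped, since BAT_5C replicate 3 at 405.4 CPM lay below BAT_30C replicate 2 at 411.9 CPM. Other measures separated the same groups: 6 of the 7 brown adipocyte markers (Ucp1, Cidea, Elovl3, Cox8b, Cox7a1, Ppargc1a and Dio2) were higher at 5 °C, with sums of 17600 to 19200 CPM in BAT_5C against 2730 to 4860 CPM in BAT_30C, and 10 of 12 T and NK cell markers were lower, with sums of 2.64 to 6.76 CPM in BAT_5C against 11 to 14.9 CPM in BAT_30C. Of all 16213 genes tested, 59.5% passed the threshold (adjusted p under 0.05), and 29.2% passed as higher. No marker of either list was at 0 across a group, and the part of these markers in the Atp4b, Otop1 and Kcnk3 values was not tested.

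The Na,K-ATPase beta subunits showed no separation between the temperatures in brown fat. Atp1b3, the beta subunit with the highest level per length in these libraries, had 238, 229, 229 and 239 CPM in BAT_5C and 209.6, 295.7, 258 and 289.5 CPM in BAT_30C. The cold libraries were close to one another and lay inside the range of the warm ones. Atp1b1, the most widespread beta subunit and the usual one of epithelia, averaged 25.6 ± 4.19 CPM in BAT_5C and 25.0 ± 5.14 CPM in BAT_30C (SD, n = 4 each). Atp1b2, a beta subunit of glia and of muscle that also acts in cell adhesion, averaged 23.0 ± 2.16 CPM in BAT_5C and 25.7 ± 2.47 CPM in BAT_30C (SD, n = 4 each), and its groups overlapped. The log2 fold changes were 0.04 ± 0.15 for Atp1b1, -0.16 ± 0.09 for Atp1b2 and -0.17 ± 0.10 for Atp1b3 (SE). Scaling by library totals, which moves the median of all genes by -0.38, put them at -0.34, -0.54 and -0.54, and Atp1b2 and Atp1b3 then passed the threshold as lower. By that scaling 54.5% of all 16213 genes passed as lower.

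The alpha subunits of the H,K-ATPases were at or near 0. Atp4a, the catalytic partner of Atp4b in the stomach, and Atp12a, the alpha subunit of the colon and skin form, each had 0 counts in all 8 BAT libraries, which allows up to 0.0185 CPM in BAT_5C and 0.0147 CPM in BAT_30C (3 counts over the group). In WAT_5C, Atp4a had 0, 3, 3 and 5 counts, and in WAT_30C it had 9, 10, 5 and 1 counts. The ratio of WAT_5C to WAT_30C was 0.500 with a counting interval of 0.222 to 1.05, so no difference was detectable at this depth. Against the WAT libraries of the same temperature, Atp4a was 1.81-fold lower in BAT_5C and 4.55-fold lower in BAT_30C at a floor of 3 counts over the BAT group. These values take the WAT sums of 11 and 25 counts as exact, so they are no strict lower limits. At 5 °C the groups overlapped, as WAT_5C replicate 1 also had 0 counts. Atp12a had 5 counts in all in WAT_5C and 4 in WAT_30C. Neither gene passed the filter on low counts, which left 6 of the 8 in each test.

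**Figure D1:**
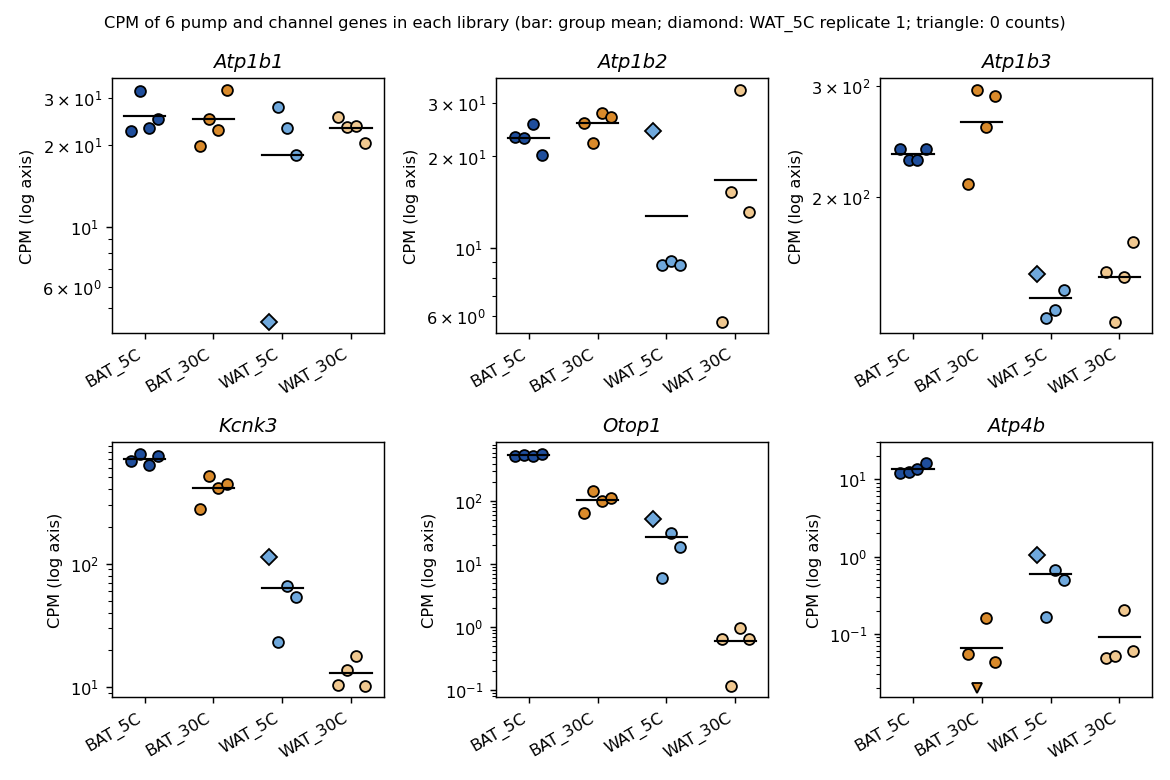
CPM of Atp1b1, Atp1b2, Atp1b3, Kcnk3, Otop1 and Atp4b in each library (log axes, 4 libraries per group), with a bar at each group mean, a diamond for WAT_5C replicate 1 and a triangle for the library with 0 counts. Kcnk3, Otop1 and Atp4b stand higher in BAT_5C than in BAT_30C in every library, while the beta subunits Atp1b1, Atp1b2 and Atp1b3 overlap. By library totals, which are not shown, the Kcnk3 groups BAT_5C and BAT_30C overlapped.

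Of the 6 genes tested, Atp4b, Kcnk3 and Otop1 passed the threshold in brown fat (adjusted p under 0.05) and all were higher. Of all 16213 genes tested, 59.5% passed, 29.2% passed as higher, and 27.6% were higher without overlap between the groups. Nothing is read from these counts, because the choice of the genes used the same comparison.

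In white fat the same 3 genes had higher means at 5 °C, with wide spread between the cold libraries. Otop1 had 53.1, 5.93, 30.9 and 18.7 CPM in WAT_5C, against 0.644, 0.115, 0.960 and 0.644 CPM in WAT_30C. The lowest cold library was several times the highest warm one. The log2 fold change was 5.49 ± 0.84 (SE) with all 8 libraries and 4.94 ± 0.69 without WAT_5C replicate 1. Kcnk3 had 113, 23.1, 66.2 and 54.0 CPM in WAT_5C, against 10.3, 13.8, 18.0 and 10.3 CPM in WAT_30C. Its groups did not overlap either, with a log2 fold change of 2.26 ± 0.44 (SE), and 1.83 ± 0.34 without that library. Atp4b was low in both groups, at 1.04, 0.165, 0.665 and 0.496 CPM in WAT_5C and 0.0481, 0.0524, 0.201 and 0.0597 CPM in WAT_30C. Here the groups overlapped, since WAT_5C replicate 2 lay below WAT_30C replicate 3. The sums of 181 and 33 counts gave a ratio of 6.23 (95% interval 4.28 to 9.32, counting error only) and a log2 fold change of 2.66 ± 0.67 (SE), 2.25 ± 0.63 without WAT_5C replicate 1 and 3.40 without WAT_30C replicate 3.

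The order of the WAT_5C libraries was the same for Otop1, Kcnk3 and Atp4b: replicate 1 was highest, then replicate 3, replicate 4 and replicate 2. The 7 brown adipocyte markers summed to 514, 71.3, 749 and 328 CPM in WAT_5C, against 13.4, 16.5, 33.0 and 20.1 CPM in WAT_30C. Replicate 2 was again lowest and replicate 4 next, while replicates 1 and 3 changed places. Of the 7, 1 passed as higher with all libraries and 5 without WAT_5C replicate 1, and none was at 0 across a group. Of all genes tested, 0.0632% passed with all libraries and 2.11% without WAT_5C replicate 1, in either direction. Markers of other cell types differed between these libraries too. The 12 T and NK cell markers summed to 131 to 551 CPM in WAT_5C against 591 to 828 CPM in WAT_30C, without overlap. The 6 general adipocyte markers summed to 5080 to 19900 CPM in WAT_5C against 3190 to 5530 CPM in WAT_30C. In WAT_5C, the lowest T and NK cell sum and the highest adipocyte sum were both those of replicate 1. The other WAT_5C libraries had 464 to 551 CPM of T and NK cell markers and 5080 to 7634 CPM of adipocyte markers. Of the 12 and the 6 markers, 0 and 0 passed by edgeR's quasi-likelihood test with all libraries. An unadjusted p under 0.05 was found for 2 and 4, and 0 and 2 passed by DESeq2. Without WAT_5C replicate 1, 1 of the 12 passed as lower by edgeR and 0 of the 6 passed. The part of all these markers in the Otop1, Kcnk3 and Atp4b values was not tested.

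Atp1b2 and Atp1b1 varied between white fat libraries more than between temperatures. Atp1b2 had 24.3, 8.80, 9.07 and 8.82 CPM in WAT_5C, against 5.74, 15.3, 33.0 and 13.2 CPM in WAT_30C. The sum of 13 skeletal muscle markers, such as Acta1, Ckm and Myh4, was 6350, 13.6, 88.8 and 221 CPM in WAT_5C, against 114, 2380, 9410 and 2100 CPM in WAT_30C. Of the 12 muscle markers tested, 0 passed by edgeR's quasi-likelihood test, 0 had an unadjusted p under 0.05 and 0 passed by DESeq2, and none was at 0 across a group. Both measures were highest in WAT_30C replicate 3 and next highest in WAT_5C replicate 1. The Atp1b2 log2 fold change was -0.43 ± 0.55 (SE) with all libraries, -0.95 ± 0.49 without WAT_5C replicate 1 and 0.14 without WAT_30C replicate 3. Atp1b1 had 4.45, 27.6, 23.1 and 18.4 CPM in WAT_5C, against 25.4, 23.4, 23.5 and 20.4 CPM in WAT_30C. Its low library, WAT_5C replicate 1, also had the lowest sum of the 14 mammary epithelium markers, 26.7 CPM, against 1520 to 1580 CPM in the other WAT_5C libraries and 989 to 1630 CPM in WAT_30C. Of the 14, 0 passed with all libraries by edgeR, by DESeq2 or at an unadjusted p under 0.05, and 1 passed by edgeR without that library. Without it the Atp1b1 log2 fold change was -0.04 ± 0.14 (SE), against -0.36 ± 0.45 with it. The mammary markers summed to 1.3 to 69.7 CPM in BAT_5C and 1.32 to 25.9 CPM in BAT_30C. Atp1b1 was at 22.5 to 31.6 CPM in BAT_5C and 19.9 to 32.0 CPM in BAT_30C. Atp1b3 stayed within a narrow range, 128 to 151 CPM in WAT_5C and 127 to 169.6 CPM in WAT_30C, with a log2 fold change of -0.14 ± 0.11 (SE), or -0.19 ± 0.10 without WAT_5C replicate 1. The part of the muscle and epithelial markers in these values was not tested.

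**Figure D2:**
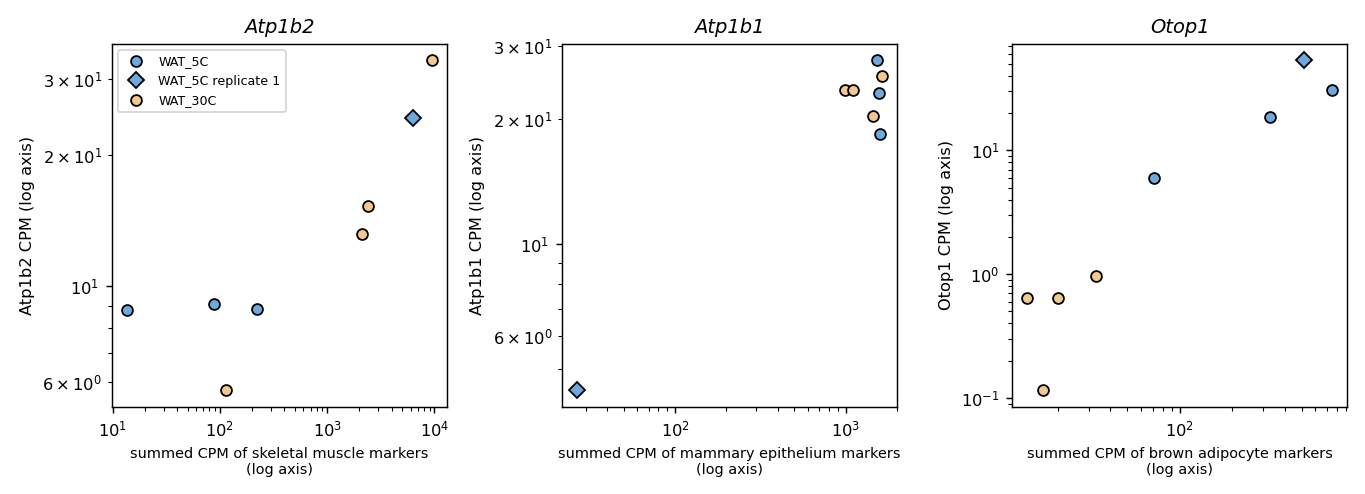
Atp1b2, Atp1b1 and Otop1 (CPM, log axes) in the 8 WAT libraries against the summed CPM of skeletal muscle, mammary epithelium and brown adipocyte markers (log axes), with a diamond for WAT_5C replicate 1. WAT_5C replicate 1 has 4.45 CPM of Atp1b1 beside 26.7 CPM of mammary markers, and WAT_30C replicate 3 has 33.0 CPM of Atp1b2 beside 9410 CPM of muscle markers.

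With all 8 WAT libraries, 0 of the 6 tested genes passed the threshold, where 12 of 18975 genes, 0.0632%, were called by edgeR's quasi-likelihood test and 3430 had an unadjusted p under 0.05; DESeq2 called 1119. Kcnk3 and Otop1 were among the 8.26% of genes that were higher without overlap. Without WAT_5C replicate 1, Kcnk3 and Otop1 passed, where 408 of 19320 genes, 2.11%, were called and 12% were higher without overlap. As in brown fat, nothing is read from these counts, because the genes were chosen with their values known.

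The size of the temperature difference was compared between the tissues in 1 fit of all libraries, as the white fat change minus the brown fat change. It was -5.00 ± 0.94 for Atp4b, 3.19 ± 0.77 for Otop1 and 1.51 ± 0.49 for Kcnk3 (log2, SE). Atp4b thus changed more in brown fat on the log scale, and Otop1 and Kcnk3 more in white fat. Without WAT_5C replicate 1 the values were -5.46 ± 0.89 for Atp4b, 2.59 ± 0.67 for Otop1 and 1.04 ± 0.40 for Kcnk3. With any 1 library left out, the Atp4b value ran from -5.95, without BAT_30C replicate 3, to -4.27, without WAT_30C replicate 3. For Atp1b1, Atp1b2 and Atp1b3 the values were -0.37 ± 0.50, -0.24 ± 0.59 and 0.06 ± 0.16 (SE), and -0.09 ± 0.23, -0.80 ± 0.49 and -0.03 ± 0.15 without WAT_5C replicate 1. The Atp1b2 value turned to 0.32 without WAT_30C replicate 3, and that of Atp1b3 to -0.01 with RLE size factors. Of the 6 genes, 3 passed with all libraries, where 20.8% of 19481 genes did, and Atp4b and Otop1 passed without WAT_5C replicate 1, where 31.3% of 19849 did. Nothing is read from these counts either, as the genes were chosen with their values known.

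**Figure D3:**
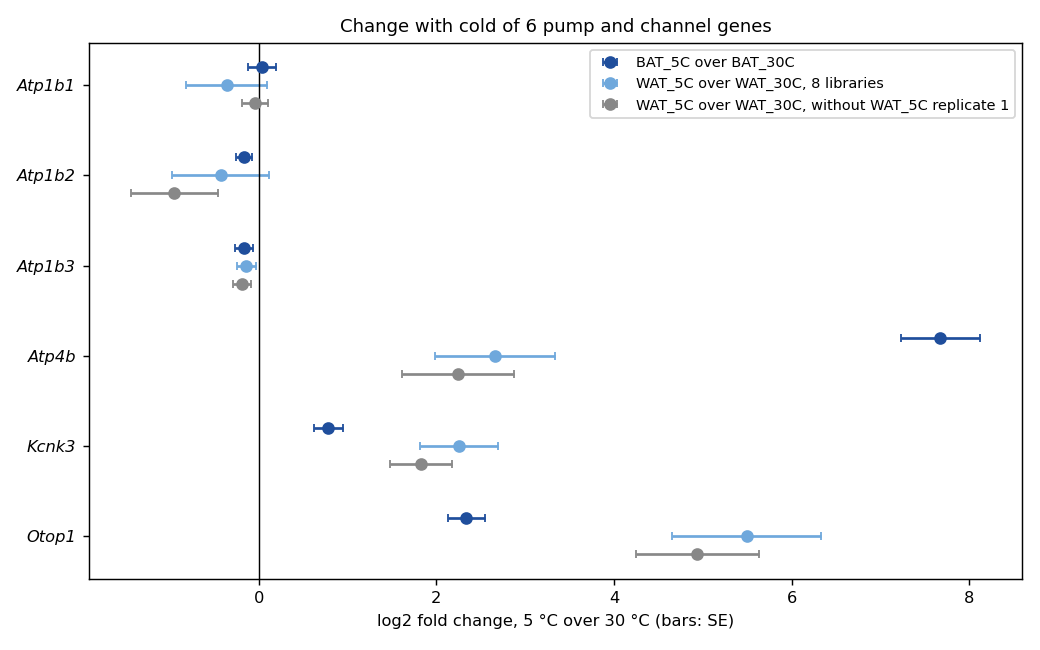
Log2 fold change of 5 °C over 30 °C (points) with SE (bars) for Atp1b1, Atp1b2, Atp1b3, Atp4b, Kcnk3 and Otop1, in BAT, in all 8 WAT libraries and in WAT without WAT_5C replicate 1. Atp4b is at 7.68 in BAT and 2.66 in WAT, whereas Otop1 is at 2.34 in BAT and 5.49 in WAT.

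Set between the tissues, Otop1 and Kcnk3 were higher in brown fat at both temperatures. At 30 °C Otop1 was 181-fold higher in BAT than in WAT (log2 7.50 ± 0.70, SE) and Kcnk3 31.4-fold higher (4.97 ± 0.41). At 5 °C the differences were 4.32 ± 0.59 for Otop1 and 3.47 ± 0.38 for Kcnk3 on the log2 scale, and 4.85 ± 0.56 and 3.87 ± 0.34 without WAT_5C replicate 1. Scaled by library totals, Otop1 was 100.4-fold and Kcnk3 17.3-fold higher in BAT than in WAT at 30 °C, and 11.4-fold and 6.21-fold higher at 5 °C. The order of the group means for both genes was BAT_5C, BAT_30C, WAT_5C and WAT_30C, and no neighbours in that order overlapped at TMM-adjusted library sizes. By library totals, BAT_5C and BAT_30C overlapped for Kcnk3. Of all genes, 33% were higher in BAT without overlap at 30 °C and 28.8% at 5 °C, or 34.4% at 5 °C without WAT_5C replicate 1.

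Atp4b followed another order. It was highest in BAT_5C, then in WAT_5C, and the lowest groups, WAT_30C and BAT_30C, were not apart beyond their spread (0.0902 ± 0.0739 and 0.0652 ± 0.0687 CPM, SD, n = 4 each). At 5 °C it was higher in BAT than in WAT by 4.54 ± 0.59 (4.93 ± 0.56 without WAT_5C replicate 1), and at 30 °C the difference was -0.47 ± 0.78 (log2, SE), which turned to 0.27 without WAT_30C replicate 3.

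Atp1b3 was higher in BAT than in WAT in every library at each temperature, by 0.82 ± 0.11 at 30 °C and 0.75 ± 0.11 at 5 °C (log2, SE; 0.78 ± 0.11 at 5 °C without WAT_5C replicate 1), but scaling by library totals turned these to -0.04 and -0.17. That scaling moves the median of all genes by -0.85 at 30 °C and -0.93 at 5 °C. Atp1b1 overlapped between the tissues at both temperatures, at 0.11 ± 0.36 at 30 °C and 0.47 ± 0.36 at 5 °C, or 0.13 ± 0.17 at 5 °C without WAT_5C replicate 1. Atp1b2 overlapped at 30 °C (0.61 ± 0.41), and at 5 °C it was at 0.85 ± 0.42 with all libraries and at 1.35 ± 0.37 without WAT_5C replicate 1, when the groups no longer overlapped. At 30 °C, 3 of the 6 genes passed (69.8% of all genes did), and at 5 °C 4 did (72.4%), or 5 without WAT_5C replicate 1 (76.2%). Again nothing is read from these counts, as the genes were chosen with their values known.

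Levels of different genes were compared per kilobase of the union of their exons. In BAT_5C, Kcnk3 was highest at 178 ± 16.0 CPM per kb, followed by Otop1 at 157 ± 5.41 and Atp1b3 at 97.9 ± 2.22 (SD, n = 4). Kcnk3 at 159 CPM per kb in its lowest BAT_5C library and Otop1 at 165 in its highest overlapped, whereas both lay above Atp1b3. That overlap rests on the length used. Kcnk3 has a longer exon union than Otop1 (3976 against 3442 bases) but a shorter coding sequence (1227 against 1800 bases). Before division by length, Kcnk3 had at least 631 CPM in BAT_5C and Otop1 at most 568 CPM, so per coding length they would not overlap. In BAT_30C, Atp1b3 at 110.2 ± 16.5 CPM per kb and Kcnk3 at 103 ± 24.8 overlapped, and Otop1 stood at 31.1 ± 9.94. In white fat Atp1b3 led in both groups, at 58.0 ± 4.27 CPM per kb in WAT_5C and 62.5 ± 7.37 in WAT_30C, above Kcnk3 at 16.1 ± 9.37 in WAT_5C and 3.30 ± 0.923 in WAT_30C. Without WAT_5C replicate 1 the WAT_5C means were 56.3 for Atp1b3 and 12.0 for Kcnk3. Per kilobase of the exon union, Atp4b overlapped with Atp1b1 and lay above Atp1b2 in BAT_5C, with 8.08 to 10.9 CPM per kb against 7.31 to 10.3 for Atp1b1 and 4.95 to 6.25 for Atp1b2 in the same libraries.

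The 4 beta subunit transcripts were also expressed as shares of their sum per length. Atp4b made up 6.69, 6.84, 7.54 and 8.77% of it in the BAT_5C libraries, against 0.0365, 0, 0.0876 and 0.0208% in the BAT_30C libraries. With coding length in place of the exon union the BAT_5C mean of 7.46% became 4.41%. By that length Atp4b, at 3.94 to 5.23%, lay below both Atp1b1, at 7.04 to 9.91%, and Atp1b2, at 6.55 to 8.51%, in BAT_5C, so the place of Atp4b among them rests on the length used. In WAT the Atp4b share averaged 0.573 ± 0.335% at 5 °C and 0.0790 ± 0.0608% at 30 °C (SD, n = 4 each), and 0.441% at 5 °C without WAT_5C replicate 1. Atp1b3 held the largest share in every library: on average 81.0 ± 1.12% in BAT_5C and 88.3 ± 1.26% in BAT_30C, and 85.9 ± 2.74% in WAT_5C and 84.2 ± 3.77% in WAT_30C (SD, n = 4 each). In brown fat the Atp1b3 shares of the groups did not overlap, with at most 82.6% in BAT_5C and at least 87.3% in BAT_30C. Shares sum to 100 in each library, so a higher Atp4b share lowers the others by construction.

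**Figure D4:**
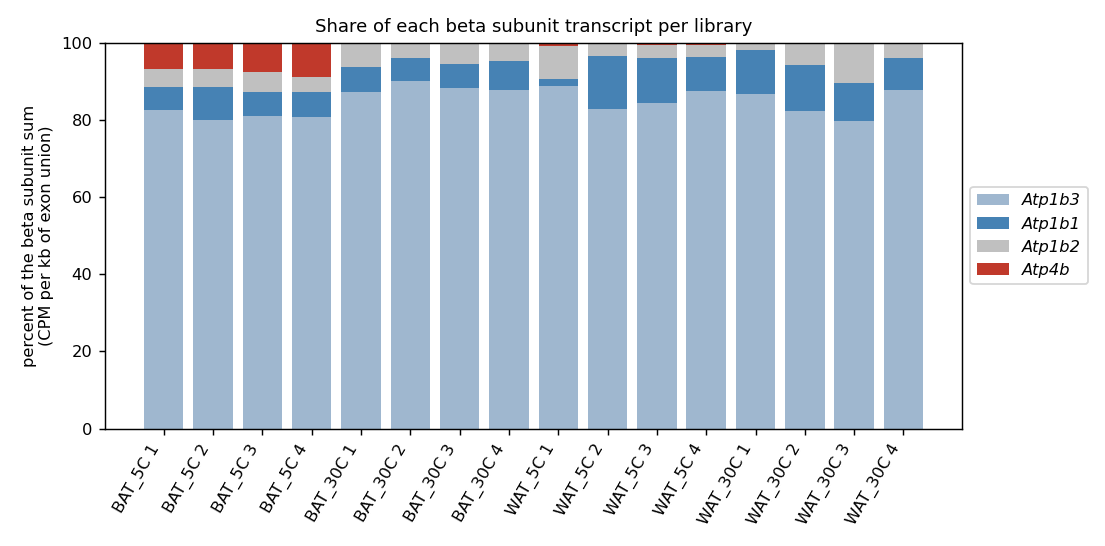
Share of Atp1b3, Atp1b1, Atp1b2 and Atp4b in the sum of the 4 beta subunit transcripts (percent, CPM per kb of exon union) in each of the 16 libraries. Atp4b takes 6.69 to 8.77% in BAT_5C libraries and less than 1% in every other library.

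The related genes Atp1a4 and Atp1b4 had low levels. Atp1a4, an alpha subunit known from sperm, averaged 0.498 ± 0.162 CPM in BAT_5C and 0.324 ± 0.0210 CPM in BAT_30C (SD, n = 4 each), at a log2 difference of 0.62 ± 0.29 (SE; adjusted p = 0.0919, edgeR quasi-likelihood test with Benjamini-Hochberg adjustment). It was higher in BAT than in WAT by 1.97 ± 0.43 at 30 °C (edgeR adjusted p = 0.000873) and by 2.02 ± 0.42 at 5 °C (edgeR adjusted p = 0.000561). Atp1b4, which belongs to the beta subunit family by sequence, was too low to test in brown fat.

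The regulators that bind the Na,K-ATPase moved in both directions in brown fat. Fxyd1, phospholemman, an inhibitor of the pump in muscle, averaged 133 ± 5.70 CPM in BAT_5C and 69.6 ± 2.71 CPM in BAT_30C (SD, n = 4 each) and rose by 0.94 ± 0.06 (edgeR adjusted p = 9.6e-07). Nkain1, which encodes a membrane protein that interacts with the Na,K-ATPase beta subunit, averaged 1.24 ± 0.412 CPM in BAT_5C and 12.0 ± 9.27 CPM in BAT_30C (SD, n = 4 each) and fell by 3.29 on the log2 scale (SE 0.50, edgeR adjusted p = 0.000345), or by 2.57 without BAT_30C replicate 1, whose 25.8 CPM stood against a BAT_30C median of 8.25 CPM. Fxyd5, dysadherin, fell by 0.33 (SE 0.12, edgeR adjusted p = 0.0425), a call that was lost in 7 of the 8 fits with 1 library left out. Of the 7 FXYD genes listed, 5 were tested in BAT, 1 rose, 1 fell and 3 did not pass, where 59.5% of all genes passed. In WAT, Fxyd3 rose by 0.60 ± 0.12 (edgeR adjusted p = 0.0493) without WAT_5C replicate 1, in which it was at 0.240 CPM, and with all 8 libraries it was at 0.20 ± 0.83 (edgeR adjusted p = 0.908).

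In brown fat, relatives of Kcnk3 and Otop1 were low or nearly absent. Of 13 other Kcnk genes, 5 were tested in brown fat and 0 passed by edgeR's quasi-likelihood test (1 had an unadjusted p under 0.05, and 0 passed by DESeq2). Of all genes, 59.5% passed by edgeR. Scaled by totals 3 Kcnk genes passed, all lower, where 54.5% of all genes passed as lower. Kcnk6, the one with the highest mean, had 5.70 ± 0.656 CPM in BAT_5C and 6.95 ± 0.568 CPM in BAT_30C (SD, n = 4 each) and a log2 fold change of -0.28 ± 0.12 (edgeR adjusted p = 0.0728). In white fat Kcnk6 averaged 12.3 ± 1.80 CPM in WAT_5C and 12.9 ± 1.84 CPM in WAT_30C (SD, n = 4 each), and in WAT_30C that was close to the Kcnk3 mean of 13.1 CPM. Between the tissues, all 9 tested Kcnk genes beside Kcnk3 passed at 30 °C, where 69.8% of all genes did. Of them, 8 of 9 were lower in BAT, and Kcnk4, named after its value was seen, was higher by 2.81 ± 0.28 (edgeR adjusted p = 5.47e-07). The median log2 fold change of the 9 was -1.94, against -0.03 for all genes. The share of all genes that were lower in BAT is not given here. The other otopetrin genes were almost absent: Otop2 had 10 counts and Otop3 52 counts over all 16 libraries, most of them in WAT_30C replicate 2.

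Among inward rectifier potassium channels, 6 of 15 were tested in brown fat, of which 3 rose and 1 fell. Of all genes, 59.5% passed in brown fat, and 29.2% passed as higher. Kcnj11, the pore of the ATP-sensitive potassium channel, averaged 8.76 ± 2.63 CPM in BAT_5C and 2.68 ± 0.336 CPM in BAT_30C (SD, n = 4 each) and rose by 1.71 ± 0.22 (edgeR adjusted p = 0.000111). Kcnj8, another pore subunit of that channel, known from pericytes and smooth muscle, rose by 0.46 ± 0.10 (edgeR adjusted p = 0.00256), or 0.07 with totals. The smooth muscle and pericyte markers summed to 1210 to 1290 CPM in BAT_5C and 1060 to 1250 CPM in BAT_30C, with 3 of 10 higher and 2 lower, and their part was not tested. Kcnj15 rose by 1.13 ± 0.40 and Kcnj10 fell by 1.03 (SE 0.36), with edgeR adjusted p of 0.032 and 0.0308, and these calls were lost in 4 and 5 of the 8 fits with 1 library left out. Kcnj15 also rose in WAT without WAT_5C replicate 1, by 1.55 ± 0.29 (edgeR adjusted p = 0.0451).

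Carriers of protons, bicarbonate and chloride moved in both directions. Slc4a4, a sodium-bicarbonate cotransporter, averaged 533 ± 22.0 CPM in BAT_5C and 167 ± 58.1 CPM in BAT_30C (SD, n = 4 each) and rose by 1.68 ± 0.20 (edgeR adjusted p = 6.38e-05). Slc4a7, another sodium-bicarbonate cotransporter, averaged 13.6 ± 0.869 CPM in BAT_5C and 27.7 ± 0.457 CPM in BAT_30C (SD, n = 4 each) and fell by 1.03 (SE 0.07, edgeR adjusted p = 2.01e-06). Slc4a11 fell by 1.84 (SE 0.25, edgeR adjusted p = 0.000163), and the anion exchanger Slc4a2 rose by 0.39 ± 0.05 (edgeR adjusted p = 0.000165), or 0.01 with totals. Of 10 bicarbonate transporters, 6 were tested, 2 rose and 3 fell, where 59.5% of all genes passed. Among sodium-proton exchangers, Slc9a8 of the Golgi rose by 0.30 ± 0.06 (edgeR adjusted p = 0.00253), but turned to -0.08 with totals. Slc9a9 of endosomes fell by 0.45 (SE 0.16, edgeR adjusted p = 0.0377), a call that was lost in 5 of the 8 fits with 1 library left out. Slc12a2, which carries sodium, potassium and chloride into cells, averaged 100.4 ± 12.1 CPM in BAT_5C and 44.4 ± 6.15 CPM in BAT_30C (SD, n = 4 each) and rose by 1.18 ± 0.11 (edgeR adjusted p = 1.42e-05), while Slc12a4 and Slc12a9 of its family fell by 0.42 (SE 0.11, edgeR adjusted p = 0.00812) and 0.43 (SE 0.08, edgeR adjusted p = 0.00158).

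**Figure D5:**
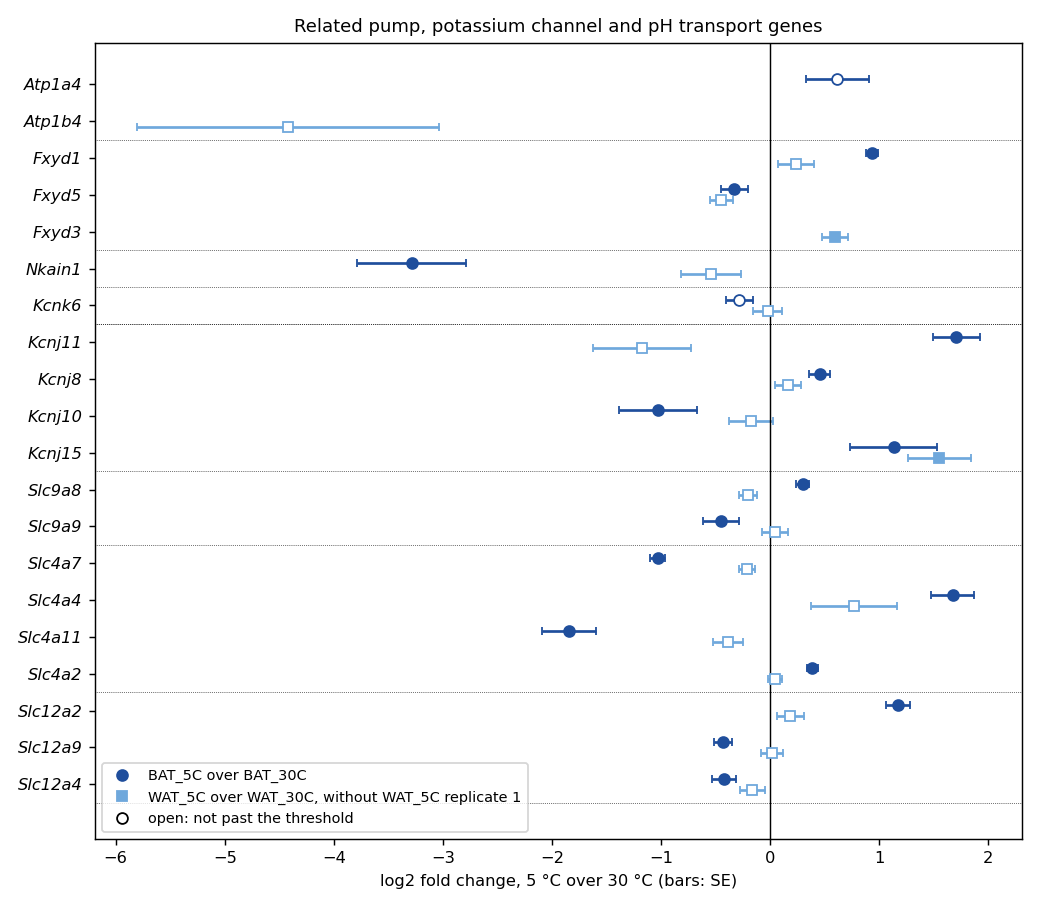
Log2 fold change of 5 °C over 30 °C (points) with SE (bars) for the named related genes, grouped by list, in BAT and in WAT without WAT_5C replicate 1. Filled points passed an adjusted p of 0.05 and open points did not, with Slc4a4 at 1.68 and Slc4a11 at -1.84 in BAT.

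Over the 74 related genes listed, 41 were tested in brown fat and 23 passed, 56.1% against 59.5% of all genes, with 12 higher and 11 lower. Their median log2 fold change was 0.22, against -0.05 for all genes. Scaling by totals gave 5 higher and 15 lower among the related genes, and 14.3% higher and 54.5% lower among all genes. In white fat 0 of 53 passed with all libraries by edgeR (2 by DESeq2, and 7 had an unadjusted p under 0.05), and 3 of 57 passed, Fxyd3 and Kcnj15 among them, without WAT_5C replicate 1, 5.26% against 2.11% of all genes. Between the tissues, 41 of 57 passed at 30 °C, 71.9% against 69.8% of all genes, 12 higher and 29 lower in BAT, or 6 higher and 41 lower with totals. At 5 °C 45 of 57 passed, 78.9% against 72.4% of all genes, 15 higher and 30 lower, or 6 higher and 41 lower with totals. Without WAT_5C replicate 1, 47 of 58 passed at 5 °C, 81% against 76.2% of all genes.

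For each of the 6 detected genes, the 3 named genes with the most similar profile over the 16 libraries were found by Pearson's r of log2 CPM among 15589 genes. The libraries share tissue and temperature, so these values describe profiles and nothing more. Otop1 was most like Ucp1 (r = 0.986), the cholesterol synthesis gene Acat2 (0.981) and Dlat, of the pyruvate dehydrogenase complex (0.980). Kcnk3 was most like Idh3a, of the citric acid cycle, the mitochondrial gene Chchd10 and Hadhb, of fatty acid oxidation (each r = 0.995). Atp4b was most like Rbks, ribokinase (0.982), Slc38a10 (0.981) and Narf (0.980), and Atp1b3 most like Nop16 (0.973), U2surp (0.970) and Phykpl (0.968). Atp1b2 was most like Pfkm, the phosphofructokinase of muscle (0.970), Synm (0.949) and Ak1 (0.946). For Atp1b1 the values were 0.917 with Xist, 0.897 with Sbno2 and 0.889 with Abtb2. Without WAT_5C replicate 1 they were -0.215, 0.574 and 0.350, so their height rests on that library. Among the 15589 genes Sbno2 still ranked 37 without it, against 577 for Abtb2 and 10980 for Xist. By Spearman's correlation over the 16 libraries, Ucp1, Acat2 and Dlat ranked 150, 1247 and 1008 for Otop1. Idh3a, Chchd10 and Hadhb then ranked 31.5, 73 and 281 for Kcnk3. In the order named above, these ranks were 6, 1 and 5 for Atp4b and 2.5, 28 and 39.5 for Atp1b3. They were 8, 1 and 164 for Atp1b2, and 3266, 4 and 116 for Atp1b1.

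The window of 250 bases before the start site was searched in the 4 of the 8 genes with an entry in the RefSeq promoter table (GRCm38.p6). Otop1 and Atp1b3 are printed, since Otop1 was higher at 5 °C in both tissues without overlap and Atp1b3 overlapped in both. The Otop1 window lies at chr5:38277154-38277403 on the plus strand and that of Atp1b3, for 1 of its 2 listed start sites, at chr9:96364432-96364681 on the minus strand. Capitals mark motif matches on either strand.
Otop1: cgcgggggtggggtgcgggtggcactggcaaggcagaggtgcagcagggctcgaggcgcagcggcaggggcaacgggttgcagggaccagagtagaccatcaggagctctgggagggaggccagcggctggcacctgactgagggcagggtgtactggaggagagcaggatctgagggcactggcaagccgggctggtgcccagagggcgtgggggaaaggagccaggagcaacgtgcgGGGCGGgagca
Atp1b3: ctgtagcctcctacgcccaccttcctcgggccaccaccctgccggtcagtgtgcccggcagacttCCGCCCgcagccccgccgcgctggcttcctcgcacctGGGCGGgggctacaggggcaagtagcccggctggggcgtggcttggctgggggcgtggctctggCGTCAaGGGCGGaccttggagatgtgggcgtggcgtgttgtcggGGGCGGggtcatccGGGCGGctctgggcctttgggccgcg
The motifs searched on both strands were the GC box GGGCGG, the inverted CCAAT box ATTGG, the TATA box TATAAA, the cyclic AMP response element TGACGTCA and its core TGACG (which lies within it), the ERR response element TCAAGGTCA and the nuclear receptor site AGGTCA (which lies within it), the sterol response element TCACNCCAC and the E-box CACGTG. The Otop1 window held 1 match, a GC box 11 bases before the start, and 32.7% of the 32851 windows of the table hold that motif. The printed Atp1b3 window held 5 GC boxes and 1 cyclic AMP core site, a motif found in 17.8% of windows. The window of the other Atp1b3 start site, which is not printed, held an E-box, found in 6.02% of windows. The Atp1b1 window held 2 GC boxes and 1 inverted CCAAT box (33.8% of windows), and the Atp4a window held none of the motifs. A match shows only that these letters are in the window.

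Markers of the stomach, where Atp4a and Atp4b are best known, were near 0. The 10 markers, among them Cblif and Muc6, summed to 1.28 to 1.84 CPM in BAT_5C and 1.34 to 2.06 CPM in BAT_30C, and to 0.974 to 1.97 CPM in WAT_5C and 0.788 to 1.37 CPM in WAT_30C. Gkn1 and Gkn2, made by the cells of the gastric surface, were at 0 in every library, as Atp4a was in BAT. The ranges of the sum in BAT_5C and BAT_30C overlapped, whereas those of Atp4b did not. Of the 10 markers, 2 had enough counts to be tested in brown fat. Of these, 0 passed by edgeR, 0 by DESeq2 and 0 had an unadjusted p under 0.05. The part of stomach RNA in the Atp4b values was not tested.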

How the data were processed

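The authors deposited 1 table of raw counts per gene with 16 library columns. Per the submitters' processing notes, Trim Galore and TopHat were used, without versions; the program that counted, its strand setting, its build and its annotation are not given in these sources. Identifiers were matched to GENCODE M21 symbols (45143 named, 935 not), which also gave gene lengths. Groups and replicate numbers came from titles and housing labels.

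Counts were scaled by TMM, filtered (filterByExpr, minimum count 10, minimum total 15) and tested with edgeR 4.0.16 in R 4.3.3 (quasi-likelihood F-test, Benjamini-Hochberg over all genes tested, threshold 0.05). BAT and WAT were fitted apart for temperature; the difference between tissues in the temperature effect and the tissue differences used all 16 libraries. Standard errors were derived from F and the fold change (their ratio squared is F). CPM use TMM-adjusted library sizes. Intervals and floors (95%, 3 counts) cover no more than counting error, as reads were counted and not molecules. All 24 within-group pairs of libraries differed by more than sampling noise. The steps were tested on simulated data.

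Members and lists were chosen with earlier results of these data known. The rule for names takes the 8 genes, all Na,K-ATPase and otopetrin genes listed, up to 4 genes per other related list with the smallest adjusted p in each temperature comparison and its most abundant gene, and the 3 most similar genes per member; 6 genes that it names are not reported here. Alternatives were RLE size factors, library totals, no filter, DESeq2 1.42.0, a replicate block, all libraries in 1 fit, other lengths, and each library left out.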

Additional observations from a re-analysis of the deposited data

Results flagged for a closer look

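Of the 28 groups of 4 libraries tested for a value far from the rest, 2 had one, and chance flags about 1 in 20. Atp1b2 in WAT_5C was at 24.3 CPM in replicate 1 and at 8.80 to 9.07 CPM in the other libraries; replicate 1 also had 6350 CPM of skeletal muscle markers, and their part was not tested. Atp4b in WAT_30C was at 0.201 CPM in replicate 3, from 18 counts, and at 0.0481 to 0.0597 CPM in the others.

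The temperature effect differed between the tissues for 8 of the 57 related genes tested by the interaction term of edgeR's quasi-likelihood test, 14% against 20.8% of all genes. Without WAT_5C replicate 1 it did for 11 of 58, 19% against 31.3% of all genes. For the 7 genes named here the difference is given as the white fat change minus the brown fat change (log2). It was positive for Nkain1 (3.35, adjusted p = 0.00398), Slc4a11 (1.94, adjusted p = 0.00465), Slc4a7 (0.87, adjusted p = 1.7e-05) and Slc12a9 (0.50, adjusted p = 0.0103). It was negative for Kcnj11 (-2.53, adjusted p = 0.00393), Slc9a8 (-0.48, adjusted p = 0.00533) and Slc4a2 (-0.27, adjusted p = 0.0345). Kcnj11 averaged 8.76 CPM in BAT_5C and 2.68 CPM in BAT_30C, against 1.04 CPM in WAT_5C and 1.83 CPM in WAT_30C. The Slc4a2 call was lost in 10 of the 16 fits with 1 library left out, and by library totals the calls of Slc9a8 and Slc4a2 were lost.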

How the results depend on the processing

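Of 563 alternative values of the member log2 fold changes, 534 stayed close to the reported value, 27 moved by more than the spread between libraries or changed sign without having passed the threshold, and 2 that had passed turned their sign, those of Atp1b3 between BAT and WAT under library totals (-0.0357 at 30 °C and -0.17 at 5 °C). Of 40 alternative values of the member levels, 28 stayed close to the reported value and 12 moved. Of 464 values of named related genes, 394 stayed close, 57 were classed as weaker, 10 as stronger, and 3 turned their sign. The 3 that turned were Slc9a8 in BAT under totals (-0.0828), and Fxyd3 in WAT with the replicate block (-0.29) and without WAT_5C replicate 2 (-0.0159, in a range of -0.0159 to 0.5955 with 1 library left out). Calls in brown fat numbered 9647, or 6058 in the 4 libraries whose labels all match, and for related genes 23, or 14 there and 14 with the other libraries in the fit. Calls in white fat numbered 12, or 82 with totals, 25 with no filter, 1119 by DESeq2, 1587 with all 16 libraries in 1 fit, and 0 to 408 with 1 library left out (408 without WAT_5C replicate 1, 273 without replicate 2). For related genes in white fat they numbered 0, or 1 with totals, 1 with no filter, 2 by DESeq2, 3 with all 16 libraries, and 0 to 3 with 1 library left out. Tissue differences of the temperature effect numbered 4055, or 3221 to 6222 with 1 library left out (6222 without WAT_5C replicate 1). The replicate block gave 0 calls in white fat and 9091 in brown fat. Same-numbered libraries of different groups had residual correlations from -0.456 to 0.287, 5 of 24 above 0.1, so the numbers were not taken to pair the samples.

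By coding length the share of Atp4b in BAT_5C was 4.41%, that of Atp1b3 was 84.6% in BAT_30C, 82.3% in WAT_5C and 80.0% in WAT_30C, that of Atp1b2 was 7.54% in BAT_5C, 8.06% in BAT_30C and 7.14% in WAT_5C, and that of Atp1b1 was 7.32% in BAT_30C. Precision for Atp4a, Atp12a and Atp4b at 30 °C is set by counts of at most 18 per library.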
